A study of Homo sapiens with 8 samples.

Results

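The 46 genes described here act in the G2 phase and in mitosis. Among them are cyclins and their kinases, kinetochore and checkpoint proteins, the chromosomal passenger complex, spindle proteins, cytokinesis factors and regulators of anaphase. The genes were named as a list of symbols. All 46 were found in both count tables, among 17927 genes in the RNA-seq table and 14019 in the Ribo-seq table. Kinesins are left out, except that CENPE is itself a motor of the kinesin family. All libraries were made from SH-SY5Y cells, a human line established from a neuroblastoma. The 2 groups of each assay were cells with a short hairpin RNA against RPS29, a protein of the small ribosomal subunit (shRPS29, here the knockdown), and cells with a control hairpin (shCONT, here the control). Each group had 2 libraries in RNA-seq and 2 in Ribo-seq, which sequences the RNA fragments that ribosomes protect, called footprints. The time after hairpin delivery, the number of hairpins and whether the cells are clones are not stated in the labels. Nothing says that replicates came from separate cultures, so p-values measure the spread between these libraries, which may be technical.

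Depth ran from 17539104 to 19156104 counts per RNA-seq library, and from 2630463 to 4375971 per Ribo-seq library. RPS29 itself had 147 and 117 RNA counts in the knockdown, against 2430 and 2872 in the control. Among markers of noradrenergic neuroblastoma, the transcription factor GATA2 had 30736 and 27279 RNA counts in the knockdown and 22029 and 22634 in the control. TH, which encodes tyrosine hydroxylase, had 1 and 0 counts in the knockdown and 4 and 2 in the control. Of the other markers, PTPRC (blood) reached no more than 3 counts anywhere, and EPCAM (epithelium) had 9 and 9 in the knockdown and 13 and 20 in the control. Also of epithelium, CLDN4 had 63 and 53 in the knockdown and 56 and 54 in the control. KRT19 had 15 and 30 in the knockdown and 23 and 48 in the control, and CDH1 2 and 1 in the knockdown and 11 and 20 in the control. CD14 (blood) had 27 and 25 counts in the knockdown and 7 and 12 in the control. Among 4 fibroblast genes, 1 was called higher and 2 lower. COL3A1 had 4243 and 4885 counts in the knockdown and 3801 and 3465 in the control, PDGFRB 905 and 819 in the knockdown and 1109 and 1112 in the control, and COL1A1 373 and 405 in the knockdown and 475 and 449 in the control. DCN stayed at or below 21.

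Passage into mitosis is driven by cyclin A and cyclin B bound to the kinase CDK1, which CDC25 phosphatases switch on. Kinetochores then link chromosomes to the spindle, and a checkpoint holds back the anaphase promoting complex until all are attached. The mRNAs of these genes are known to peak late in the cell cycle, through the MuvB complexes with the transcription factors B-MYB and FOXM1, which act at promoter elements called CHR, and through NF-Y at CCAAT boxes. After p53 is activated the DREAM complex is known to occupy the same elements and hold these genes down. In bulk samples, fewer cells in G2 and mitosis and less RNA per such cell cannot be told apart.

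Promoter sequences are shown for 8 members, which were picked by name and not by a ranking. A link between these sequences and the RNA changes was not tested. RefSeq promoters (GRCh38.p14, 250 bases before to 50 bases after a gene start) were matched for 38 of the 46 members, as 49 promoters. TTK, BIRC5, UBE2C, KNL1, AURKA, TPX2, RACGAP1 and FOXM1 had no entry. The letters searched, on both strands, were TTTGAA for the CHR element, TTCGAA for a variant of it, and CCAAT. The lines below give the 120 bases before the start, 5′ to 3′, with matches in capitals. TTTGAA reads TTCAAA on the other strand, as in ASPM. A CHR match and a CCAAT match read on the other strand (ATTGG) overlap in MKI67.
MKI67 (chr10:128126424-128126543, minus strand): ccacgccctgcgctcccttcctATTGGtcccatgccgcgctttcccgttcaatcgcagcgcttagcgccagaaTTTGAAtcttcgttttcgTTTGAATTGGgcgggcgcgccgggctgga
ASPM (chr1:197146670-197146789, minus strand): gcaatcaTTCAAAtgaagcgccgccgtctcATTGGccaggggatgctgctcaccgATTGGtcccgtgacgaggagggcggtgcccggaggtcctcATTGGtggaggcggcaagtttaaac
CCNB1 (chr5:69167030-69167149, plus strand): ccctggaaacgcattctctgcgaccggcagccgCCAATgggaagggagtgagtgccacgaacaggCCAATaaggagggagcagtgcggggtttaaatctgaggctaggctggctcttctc
CCNB2 (chr15:59105026-59105145, plus strand): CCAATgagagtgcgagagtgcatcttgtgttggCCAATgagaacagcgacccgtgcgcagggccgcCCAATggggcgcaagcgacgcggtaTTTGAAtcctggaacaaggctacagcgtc
PLK1 (chr16:23678769-23678888, plus strand): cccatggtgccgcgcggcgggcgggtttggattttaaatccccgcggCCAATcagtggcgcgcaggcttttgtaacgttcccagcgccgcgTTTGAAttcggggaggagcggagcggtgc
PRC1 (chr15:90994536-90994655, minus strand): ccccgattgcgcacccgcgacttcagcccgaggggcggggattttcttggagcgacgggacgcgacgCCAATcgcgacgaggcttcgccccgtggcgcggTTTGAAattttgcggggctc
INCENP (chr11:62123891-62124010, plus strand): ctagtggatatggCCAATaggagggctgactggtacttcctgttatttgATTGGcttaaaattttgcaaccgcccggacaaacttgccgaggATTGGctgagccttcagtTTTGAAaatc
NUSAP1 (chr15:41332761-41332880, plus strand): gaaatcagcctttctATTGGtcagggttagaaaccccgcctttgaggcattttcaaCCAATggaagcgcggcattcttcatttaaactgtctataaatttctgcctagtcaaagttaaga

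A CHR match lay in 61.2% of the members' 49 promoters (30), against 10.6% of 16922 promoters of all genes tested in RNA-seq and 15.2% of all 35116 promoters in the table. The variant was present in 10.2% of the members' promoters, against 1.61% and 1.45%. A CCAAT match lay in 77.6% of the members' promoters, against 34.6% and 34.6%. Counted by gene, 27 of 38 members (71.1%) held a CHR match, against 13.8% of genes tested in RNA-seq. Both a CHR and a CCAAT match were held by 23 members. In 23 members a CHR match began within 50 bases of a start, as in CCNB2 and PLK1 (29 bases before it) and PRC1 (20 bases before it). Shares of other genes with both matches, or with a CHR match so placed, were not computed. CDK1 has 2 promoters in the table, and its matches lie 161, 69 and 13 bases before a start and 10 bases after one. CCNB1 and NUSAP1 have no CHR match in the printed window, and in NUSAP1 one begins 14 bases after the start. The median RNA log2 fold change was -0.74 for the 27 members with a TTTGAA match and -0.64 for the 11 without. BUB1, SGO1 and CDC25B, among those 11, hold the variant. For the variant the order was the other way, -0.44 for the 5 members with it and -0.73 for the 33 without. Differences between these medians were not tested. All matches are of letters in a fixed window and are not measured binding sites.

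**Figure D1:**
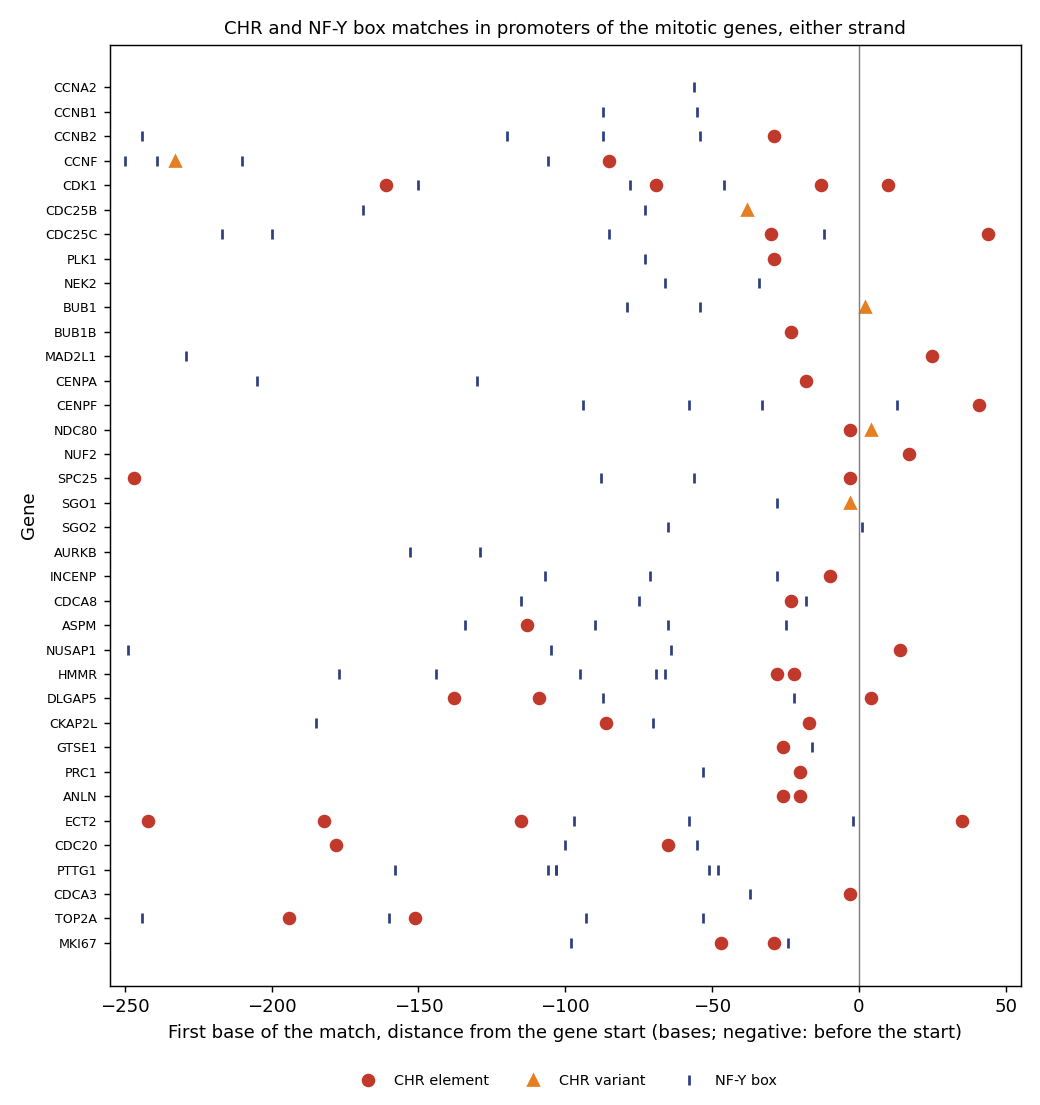
Position of each match to the CHR element (circles), its variant (triangles) and the NF-Y box (ticks) in promoters of 36 members, as the distance in bases of its first base from the gene start. Genes with several promoters have all their matches on a single row. In 23 members a CHR match begins within 50 bases of a start, and how often this holds in other genes was not computed.

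In RNA-seq, the mitotic genes were lower in the knockdown almost without exception. A total of 45 of the 46 fell and 0 rose (edgeR, adjusted p below 0.05), where 16.3% of all 14723 genes tested were called lower and 14.4% higher. Both knockdown libraries lay below both control libraries in the same 45 genes, and this was so for 32.9% of all genes tested. They lay above both controls in 0 members and in 32.3% of all genes. The median log2 fold change was -0.65, against 0.0074 over all genes tested, and 4 genes were below -1. Knockdown-to-control ratios of mean CPM (counts relative to the TMM-scaled library size) ran from 0.458 for MKI67 to 1.01 for SGO1. Summed over the 46 genes, RNA came to 4344 and 3990.2 CPM in the knockdown, against 6548 and 6665 CPM in the control. Tested against a 1.5-fold change, 8 members were called lower, against 1.13% of all genes: MKI67, ASPM, CCNB1, NUSAP1, CENPA, DLGAP5, CCNB2 and KNL1.

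**Figure D2:**
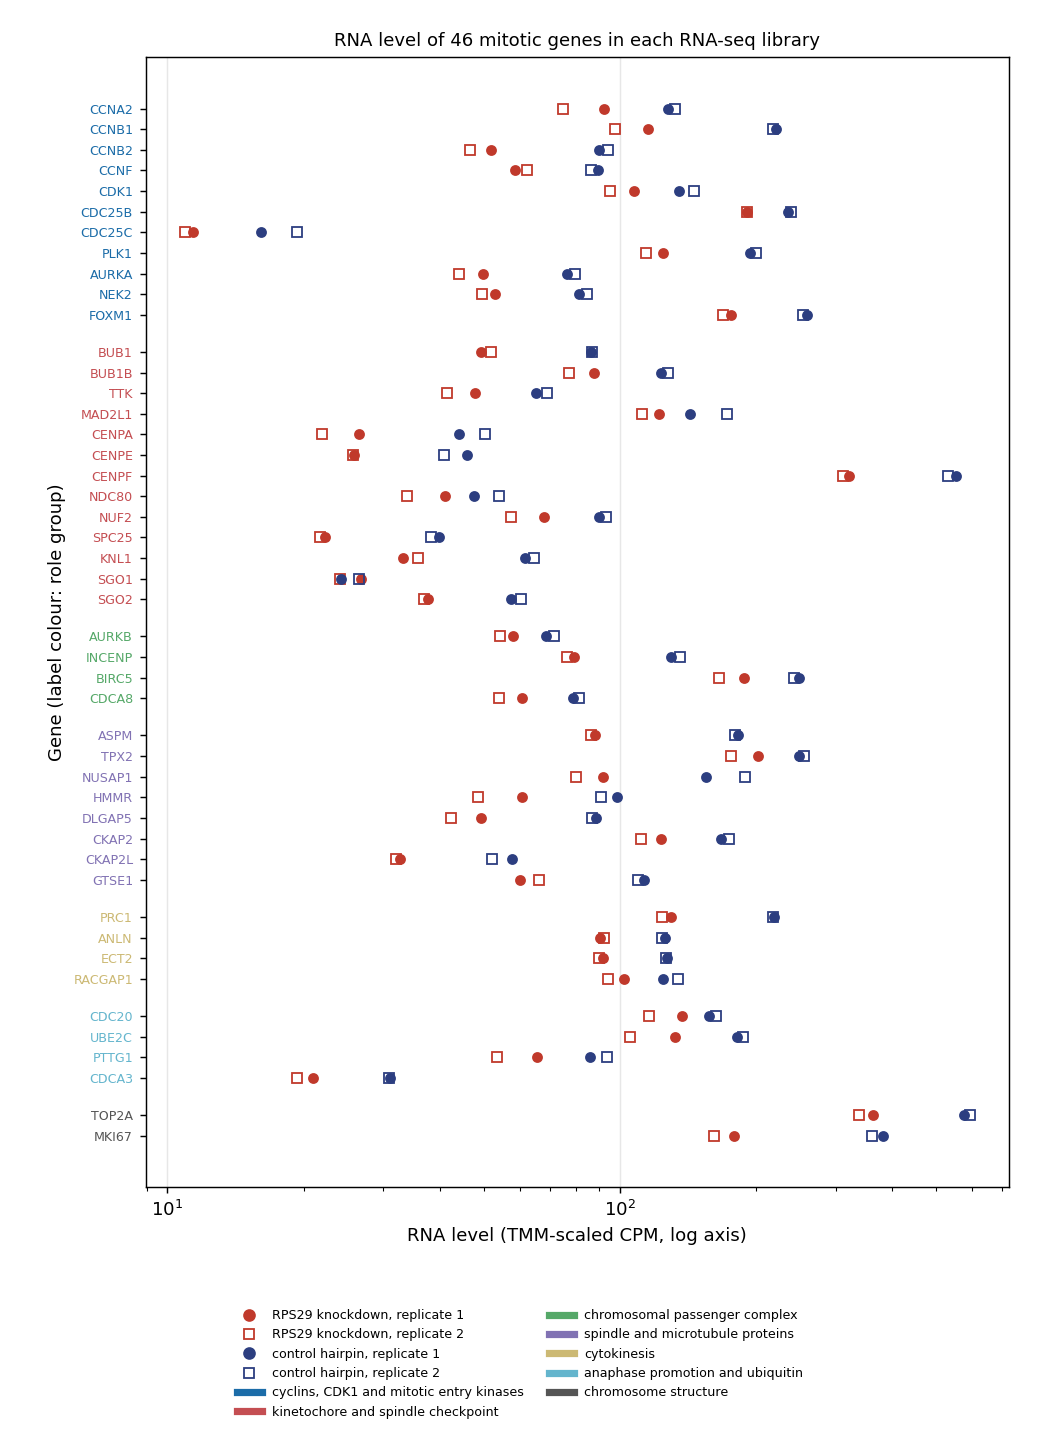
RNA level of each member (TMM-scaled CPM, log axis) in the 2 knockdown libraries (red) and the 2 control libraries (blue), with label colours for role groups. The knockdown points lie left of the control points in 45 of 46 genes, and those of SGO1 overlap.

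Cyclins and the kinases and activators of mitotic entry fell in all 11 cases, with a median log2 fold change of -0.67. CCNB1, cyclin B1 (chr5:69167150-69178245), was at 116 and 97.5 CPM in the knockdown, against 222 and 218 CPM in the control. The groups did not overlap, and the log2 fold change was -1.05 (SE 0.0827, adjusted p = 6.22e-07). CCNB2, cyclin B2, was at 51.9 and 46.6 CPM in the knockdown, against 89.9 and 94.1 CPM in the control (-0.90, SE 0.0830, adjusted p = 2.59e-06). PLK1, the polo-like kinase of centrosome maturation and spindle assembly, was at 124 and 114 CPM in the knockdown, against 194 and 200.2 CPM in the control (-0.73, SE 0.0734, adjusted p = 6.04e-06). CDK1, the catalytic partner of these cyclins, moved less than they did, at 107 and 95.2 CPM in the knockdown and 135 and 146 CPM in the control (-0.47, SE 0.0801). Smaller still was the fall of CDC25B, the phosphatase that starts CDK1 activation (-0.31, SE 0.0678), while its relative CDC25C was at -0.67 (SE 0.137) from the fewest RNA counts of any member in the knockdown, 222 and 198. The other entry genes were AURKA (-0.73), the centrosome kinase, NEK2 (-0.69), which splits centrosomes, CCNA2 (-0.64), cyclin A2, FOXM1 (-0.57), the transcription factor, and CCNF (-0.53), a cyclin-like subunit of a ubiquitin ligase. CDC25B was not called without control replicate 1 (adjusted p = 0.0594) or control replicate 2 (0.0875).

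Kinetochore and checkpoint genes had 12 of 13 members lower and a median of -0.66. CENPF, a large protein of the outer kinetochore, was at 321 and 310.4 CPM in the knockdown, against 552 and 532 CPM in the control (-0.78, SE 0.0709, adjusted p = 2.27e-06). KNL1, the scaffold that recruits checkpoint proteins, was at 33.1 and 35.7 CPM in the knockdown, against 61.5 and 64.7 CPM in the control (-0.88, SE 0.0858, adjusted p = 4.53e-06). BUB1, a checkpoint kinase, was at 49.2 and 51.8 CPM in the knockdown, against 86.3 and 86.6 CPM in the control (-0.78, SE 0.0786, adjusted p = 6.23e-06). CENPA, the histone variant that marks centromeres, was lowest of this group at -0.96 (SE 0.110). CENPE, the motor of the kinesin family, was at -0.75 (SE 0.0982). Subunits of the NDC80 complex, which holds microtubule ends, ranged from SPC25 (-0.82) through NUF2 (-0.54) to NDC80 itself (-0.44). Checkpoint proteins were at -0.61 (BUB1B), -0.59 (TTK, the kinase MPS1) and -0.43 (MAD2L1). NDC80 and MAD2L1 were not called without control replicate 2 (adjusted p = 0.0647 and 0.102).

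The shugoshins, which protect sister chromatid cohesion at centromeres, went apart. SGO1 (chr3:20160593-20186886) was at 26.8 and 24.1 CPM in the knockdown, against 24.2 and 26.5 CPM in the control, so that the groups overlapped. Its log2 fold change was 0.0083 (SE 0.109, adjusted p = 0.965), and it turned to -0.075 and -0.056 without knockdown replicate 1 and control replicate 1. SGO2 fell (-0.66, SE 0.0836), with 37.6 and 36.9 CPM in the knockdown and 57.4 and 60.3 CPM in the control. SGO1 overlaps an antisense gene that the RNA-seq table also lists, and whether counting used strand is not given. It is 1 of 11 members whose span overlaps another listed gene, with PRC1, CCNA2, FOXM1, CDC25C, SPC25, ANLN, CDCA3, CENPF, ECT2 and CKAP2L. How reads in such overlaps were assigned is not given.

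The chromosomal passenger complex corrects wrong attachments, and its 4 genes fell unevenly. INCENP, its scaffold, was at 79.2 and 76.5 CPM in the knockdown, against 129.6 and 135.6 CPM in the control (-0.77, SE 0.0740, adjusted p = 3.96e-06). BIRC5, survivin, was at 188 and 165 CPM in the knockdown, against 249 and 242 CPM in the control (-0.47, SE 0.0761, adjusted p = 3.01e-04). CDCA8, borealin, was at 60.9 and 54.0 CPM in the knockdown, against 78.8 and 81.2 CPM in the control (-0.48, SE 0.0835, adjusted p = 5.83e-04). In each of these genes both knockdown libraries lay below both controls. AURKB, the kinase of the complex, had 58.0 and 54.4 CPM in the knockdown and 68.6 and 71.5 CPM in the control (-0.32, SE 0.0803), and was not called without control replicate 2 (adjusted p = 0.106).

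Spindle and microtubule proteins showed the lowest median among the role groups with more than 2 genes, -0.80, with 8 of 8 called lower. ASPM, which focuses spindle poles, was at 87.9 and 86.4 CPM in the knockdown, against 183 and 180.0 CPM in the control (-1.06, SE 0.0707, adjusted p = 1.68e-07). NUSAP1, which bundles microtubules near chromosomes, was at 91.7 and 79.9 CPM in the knockdown, against 155 and 189 CPM in the control (-1.0, SE 0.0960, adjusted p = 3.79e-06). DLGAP5, a kinetochore-fibre stabiliser, was at 49.3 and 42.3 CPM in the knockdown, against 88.7 and 86.6 CPM in the control (-0.93, SE 0.0878, adjusted p = 3.14e-06). The groups did not overlap in any of the 8 genes. GTSE1, HMMR and CKAP2L followed at -0.81, -0.79 and -0.76, then CKAP2 at -0.54 and TPX2, the activator of Aurora A, at -0.41.

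Cytokinesis genes fell in 4 of 4 cases. PRC1, which bundles the central spindle, was at 129 and 124 CPM in the knockdown, against 219 and 218 CPM in the control (-0.79, SE 0.0698, adjusted p = 1.80e-06). ECT2, the exchange factor that activates RhoA, was at 91.6 and 89.7 CPM in the knockdown, against 127 and 126 CPM in the control (-0.48, SE 0.0719, adjusted p = 1.65e-04). ANLN, anillin of the contractile ring, was at 90.1 and 92.1 CPM in the knockdown, against 126 and 124 CPM in the control (-0.45, SE 0.0720, adjusted p = 2.78e-04). RACGAP1, a centralspindlin subunit, was at -0.40 (SE 0.0768).

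Genes of the group of anaphase promotion and ubiquitin also fell in 4 of 4 cases. UBE2C, the ubiquitin-conjugating enzyme of the anaphase promoting complex, was at 132 and 105 CPM in the knockdown, against 181 and 187 CPM in the control (-0.63, SE 0.0927, adjusted p = 1.49e-04). PTTG1, securin, was at 65.6 and 53.4 CPM in the knockdown, against 85.9 and 93.8 CPM in the control (-0.59, SE 0.0964, adjusted p = 3.31e-04). CDCA3 was at 21.0 and 19.3 CPM in the knockdown, against 31.0 and 30.9 CPM in the control (-0.62, SE 0.105, adjusted p = 4.49e-04). CDC20, which activates the complex, was at -0.34 (SE 0.0833) and was not called without control replicate 2 (adjusted p = 0.0643). Of the pair of chromosome proteins, MKI67, the coat of mitotic chromosomes and marker of proliferation, had the lowest log2 fold change of all members, with 179 and 161 CPM in the knockdown and 381 and 361 CPM in the control (-1.13, SE 0.0752, adjusted p = 1.68e-07). TOP2A, the topoisomerase that untangles sister chromatids, was at 362 and 338 CPM in the knockdown and 575 and 592 CPM in the control (-0.74, SE 0.0728, adjusted p = 4.66e-06). Differences between the role groups were not tested.

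**Figure D3:**
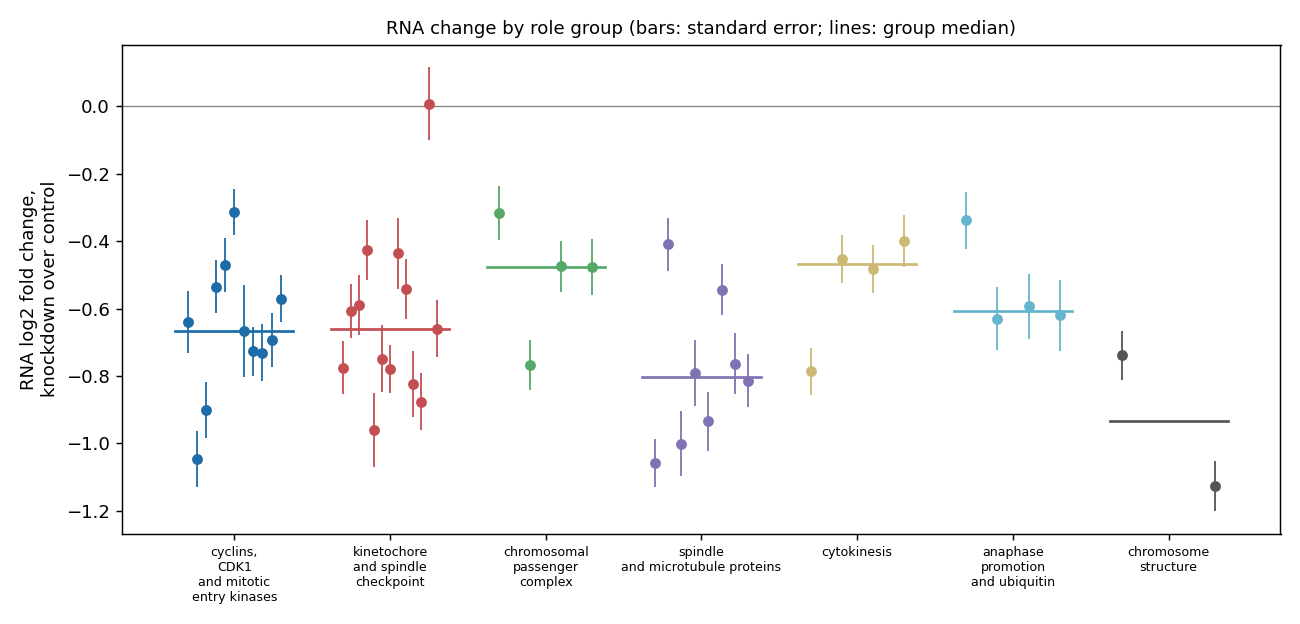
RNA log2 fold change (knockdown over control) of each member by role group, with standard errors as bars and group medians as lines. Group medians run from -0.93 for the 2 chromosome structure genes to -0.47 for cytokinesis, and SGO1 of the kinetochore group is the point at 0.0083.

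Other mitotic genes, taken from 7 lists of complexes and regulators, had smaller shares called lower than the members. Among 18 condensin and cohesin genes 11 fell and 0 rose, with a median log2 fold change of -0.25, led by STAG2 (-0.56), a cohesin subunit, and ESPL1 (-0.61), separase. Of 28 further kinetochore genes 6 fell and 1 rose (median -0.048), CENPI at -0.59 and SKA2 at 0.47. The core of the anaphase promoting complex had 1 of 14 lower and 3 higher (median 0.055), ANAPC2 at -0.36 and ANAPC7 at 0.35. Of 16 other regulators of entry and exit 5 fell and 2 rose (median -0.21), with ARPP19, an inhibitor of the phosphatase PP2A-B55, at -0.91 and CKS2, a CDK subunit, at -0.50. Of 18 centrosome and spindle pole genes 6 fell and 1 rose (median -0.11), TACC3 at -0.50 and CLASP2 at -0.44. Contractile ring and abscission genes had 7 of 15 lower and 1 higher (median -0.046), with RHOA, the GTPase that assembles the ring, at -1.30 (SE 0.0709) and MYH10, a non-muscle myosin, at -0.45. Genes of the DREAM and MuvB complexes themselves had 1 of 11 lower, LIN52 (-0.55), and 1 higher, E2F4 (0.25), with a median of -0.028. Set beside 16.3% of all genes called lower, the shares of the anaphase promoting complex and of DREAM genes were below that background and those of the other 5 lists above it, condensin and cohesin the most. Of all genes, 14.4% were called higher. Each share rests on only 11 to 28 genes, and its difference from the background was not tested.

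Footprints of 43 of the 46 mitotic genes were fitted lower in the knockdown, with far larger errors than RNA, against 48.7% of all genes tested. A total of 5 of the 46 members fell and 0 rose, where 0.607% of 11853 genes tested were called lower and 7.96% higher. The 5 were CCNB1, CDK1, AURKA, NUSAP1 and UBE2C, and 21 members (45.7%) had an unadjusted p below 0.05, against 23.1% of all genes. Both knockdown libraries were below both controls in 37 members, above them in 0 and overlapping in 9, and the first arrangement held for 26.7% of all genes tested. The median log2 fold change was -1.22, against 0.037 over all genes. The standard error of a member was 0.658 at the median, compared with 0.0828 in RNA-seq. Footprints were fitted lower in other lists too, in 23 of 28 further kinetochore genes (median -0.96), 14 of 15 contractile ring and abscission genes (-0.95), 15 of 18 condensin and cohesin genes (-0.68) and 5 of 6 noradrenergic markers (-1.09, 0 called). They were fitted lower in 9 of 14 other regulators of entry and exit (-0.20), 6 of 10 DREAM and MuvB genes (-0.097), 7 of 14 genes of the anaphase promoting complex (-0.076) and 9 of 18 centrosome genes (0.023). The lower footprints are thus not shown to be particular to the 46 genes.

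Depth limits these values. Members had a median of 20.5 and 39.5 footprint counts in knockdown replicates 1 and 2, against 65 and 78 in control replicates 1 and 2, and 12 members were under 10 counts in knockdown replicate 1. Genes with almost no RNA had Ribo-seq counts as well. If such background scaled with gene span, which was not tested, the rate per kb of 141 genes under 0.1 RNA CPM would bring it to 31.0 and 8.62% of the members' counts in the knockdown and 1.65 and 1.29% in the control. In knockdown replicate 1 it was at or above the observed count in 11 members. Knockdown replicate 1 also stands apart from the other libraries over all genes (Spearman rho 0.528 and 0.455 with the controls, 0.732 with knockdown replicate 2, against 0.827 between the controls). The part of this background in the footprint changes was not tested beyond the values below. With the expected background taken off the counts, the members' median was -1.11, over the 45 that could still be tested. The median over all genes was then -0.16, where the main fit gave 0.037. In this setting edgeR called no gene of the 9881 tested in either direction.

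**Figure D4:**
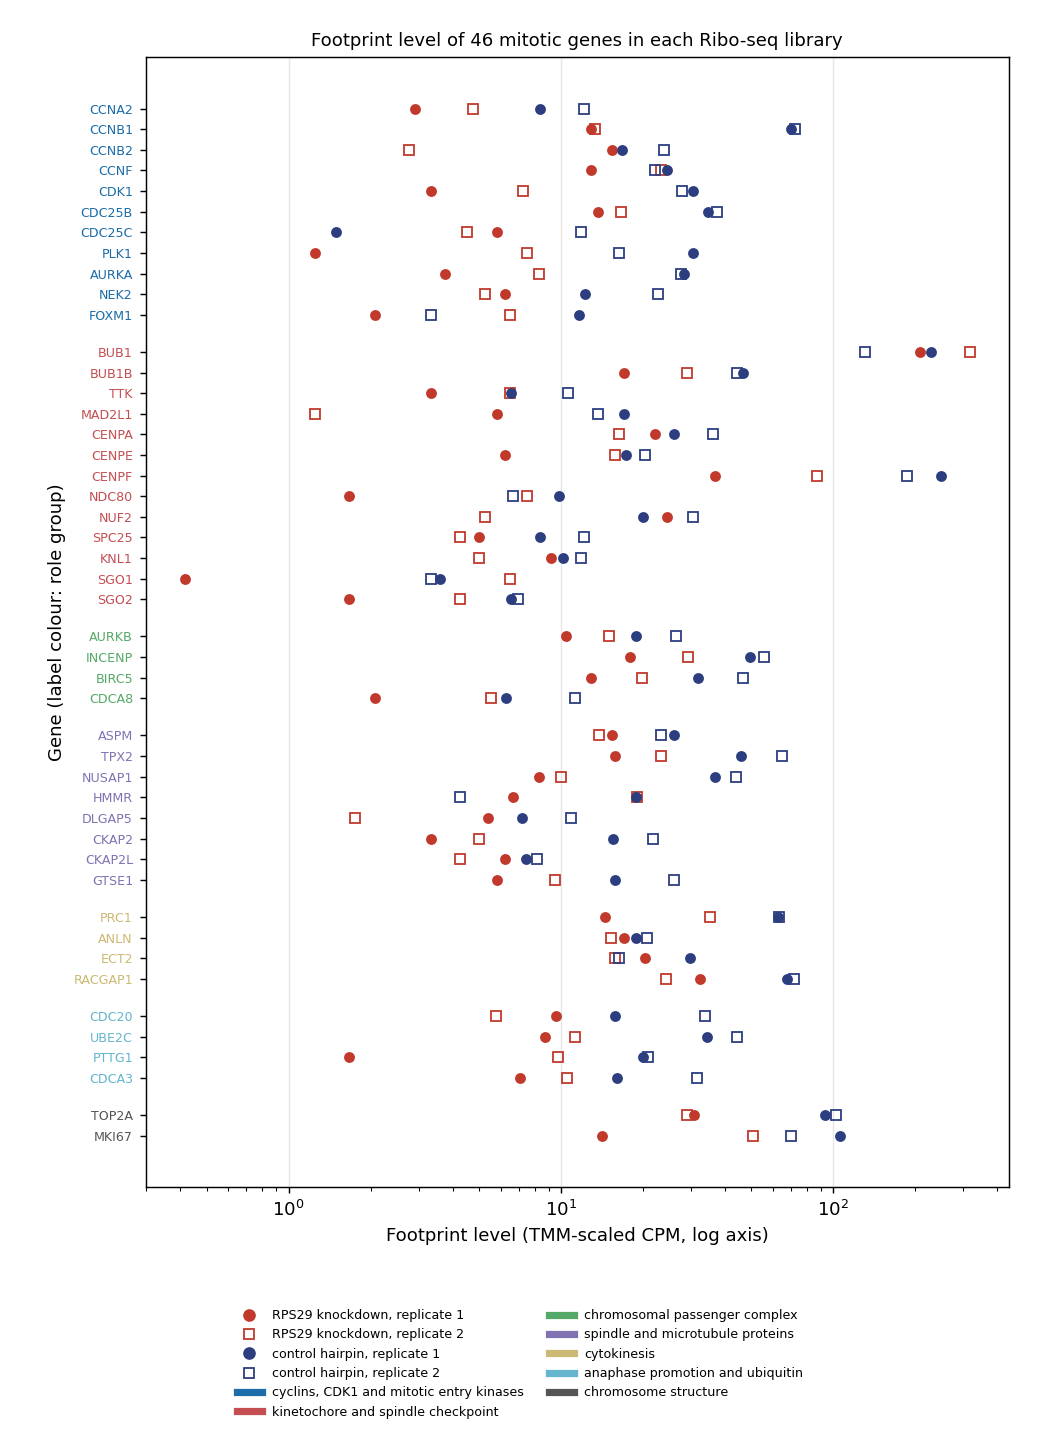
Footprint level of each member (TMM-scaled CPM, log axis) in the 2 knockdown libraries (red) and the 2 control libraries (blue). Knockdown points lie left of both control points in 37 of 46 genes, and BUB1 stands far to the right, at 208 and 316 CPM in the knockdown and 229 and 130.1 CPM in the control.

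CCNB1 had 31 and 53 footprint counts in the knockdown, against 234 and 239 in the control. Its log2 fold change was -2.44 (SE 0.560, adjusted p = 0.0123), and background over its span would give 3.82 and 2.47 counts in the knockdown. It was the 1 member still called without knockdown replicate 1. Without knockdown replicate 2 it was called together with CENPF and MKI67. It was not called without control replicate 1 (adjusted p = 0.0768), without control replicate 2 (0.148) or with background taken off (-1.91, adjusted p = 0.255).

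CDK1 (chr10:60778331-60794852) had 8 and 29 counts in the knockdown, against 102 and 92 in the control (-2.42, SE 0.656, adjusted p = 0.0296). Expected background there was 5.69 and 3.68 counts in the knockdown. AURKA had 9 and 33 counts in the knockdown, against 95 and 91 in the control (-2.18, SE 0.652, adjusted p = 0.0467). NUSAP1 had 20 and 40 counts in the knockdown, of which 16.6 and 10.7 would be background, against 123 and 145 in the control (-2.13, SE 0.584, adjusted p = 0.0318). UBE2C, whose short span allows 1.48 and 0.960 background counts in the knockdown, had 21 and 45, against 115 and 146 in the control (-1.96, SE 0.584, adjusted p = 0.0455). In each of the 5 genes the groups did not overlap, yet the calls of these 4 ended when any single library was left out. Their log2 fold changes then stayed between -3.19 and -1.99 for CDK1, -2.96 and -1.74 for AURKA, -2.35 and -1.99 for NUSAP1 and -2.24 and -1.79 for UBE2C. Scaled and tested among the 9165 genes with at least 10 RNA CPM, CCNB1 alone was called and the members' median was -0.95.

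By role, the 4 anaphase and ubiquitin genes had a median footprint log2 fold change of -1.74, with no overlap between groups in 4 of 4. The 8 spindle genes were at -1.40 (7 of 8) and the 11 cyclins and entry kinases at -1.39 (8 of 11). The passenger complex was at -1.15 (4 of 4), cytokinesis genes at -0.83 (3 of 4) and kinetochore and checkpoint genes at -0.79 (9 of 13). The 2 chromosome proteins were at -1.57. Over all genes tested, both knockdown footprint libraries lay below both controls in 26.7%. Among genes not called, PLK1 had 3 and 30 counts in the knockdown, against 102 and 54 in the control. TOP2A had 74 and 116 in the knockdown, against 313 and 336 in the control, and CENPF 88 and 346, against 829 and 614. MKI67, lowest in RNA, had 34 and 202 footprint counts in the knockdown and 355 and 231 in the control, so that its 2 knockdown libraries differed from each other more than knockdown replicate 2 from control replicate 2. SGO1 had 1 and 26 counts in the knockdown and 12 and 11 in the control.

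BUB1 (chr2:110637528-110678063) departed from the rest. It had 501 and 1260 footprint counts in the knockdown and 766 and 429 in the control, or 30.3 and 32.6% of all member counts in the knockdown and 13.8 and 8.09% in the control. Its footprint log2 fold change was 0.55 (SE 0.583, adjusted p = 0.633) while its RNA fell. The RefSeq annotation places the snoRNA gene SNORD132 inside BUB1, and reads of a small RNA there would be counted as BUB1 footprints if counting ran over the whole gene. The part of SNORD132 in these counts was not tested. In the footprint-to-RNA ratio, CPM over CPM, BUB1 was at 5.19 in the knockdown and 2.08 in the control, while the other 45 members lay between 0.0249 and 0.792 in the knockdown (median 0.128) and between 0.0292 and 0.769 in the control (median 0.208). Without BUB1, the members' summed footprints were 480.3 and 653 CPM in the knockdown, against 1431 and 1478 CPM in the control. Small RNA genes lie in 4 other members too, CCNB1, CCNF, KNL1 and ECT2.

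Footprints relative to RNA, the translational efficiency, were tested as the interaction of assay and condition over all 8 libraries. No member was called in either direction, where 0.873% of 10648 genes tested were called lower and 3.01% higher. An unadjusted p below 0.05 was found in 13 members (28.3%) and in 26.0% of all genes, a count near the background when direction is left aside. Of these 13 members, BUB1 alone was fitted higher. The share of all genes in each direction at this p was not computed. On simulated data this test recovered no change of the sizes simulated, and the footprint test almost none, so that few or no calls say little about the size of a change. DESeq2 called 6 members lower, against 6.34% of all genes, and 1 higher, against 9.53%, and limma-voom called 0. With edgeR, 6 were lower without knockdown Ribo-seq replicate 1 (4.96% of all genes), 14 without knockdown Ribo-seq replicate 2 (15.0%) and 3 without control Ribo-seq replicate 1 (4.36%). The members called higher were then 1, 0 and 1, against 6.66, 17.8 and 8.46% of all genes. The fitted change was below 0 in 34 of 46 members and in 48.1% of all genes, with a median of -0.38 against 0.058 over all genes. That median was -0.87 without knockdown Ribo-seq replicate 2, and -0.083 over the 14 members with at least 50 counts on average in each group. This filter removes members with low knockdown footprints, CCNB1 and CDK1 among them. Role medians ran from -1.11 for anaphase and ubiquitin genes and -0.80 for cyclins and entry kinases to -0.16 for kinetochore genes and -0.090 for cytokinesis genes. The lowest values were those of CDK1 (-1.80, SE 0.437, adjusted p = 0.0569) and MAD2L1 (-1.73, SE 0.668, adjusted p = 0.150), and the highest that of BUB1 (1.43, SE 0.454, adjusted p = 0.10). CCNB1, with the smallest p among members, was at -1.28 (SE 0.302, adjusted p = 0.0548). Its footprint-to-RNA ratio was 0.121 and 0.125 for the knockdown Ribo-seq libraries, against 0.317 and 0.330 for the control ones, each over the mean RNA of its group. For CDK1 the ratio was 0.0329 and 0.0718 in the knockdown, against 0.217 and 0.199 in the control. This model shares 1 dispersion per gene between assays. Taken as the difference of the separate fits, the change was -1.39 (SE 0.566) for CCNB1 and -1.95 (SE 0.661) for CDK1. Across the 46 members, the RNA and footprint log2 fold changes showed almost no common ranking (Spearman rho 0.0436, a description over genes measured in the same libraries).

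**Figure D5:**
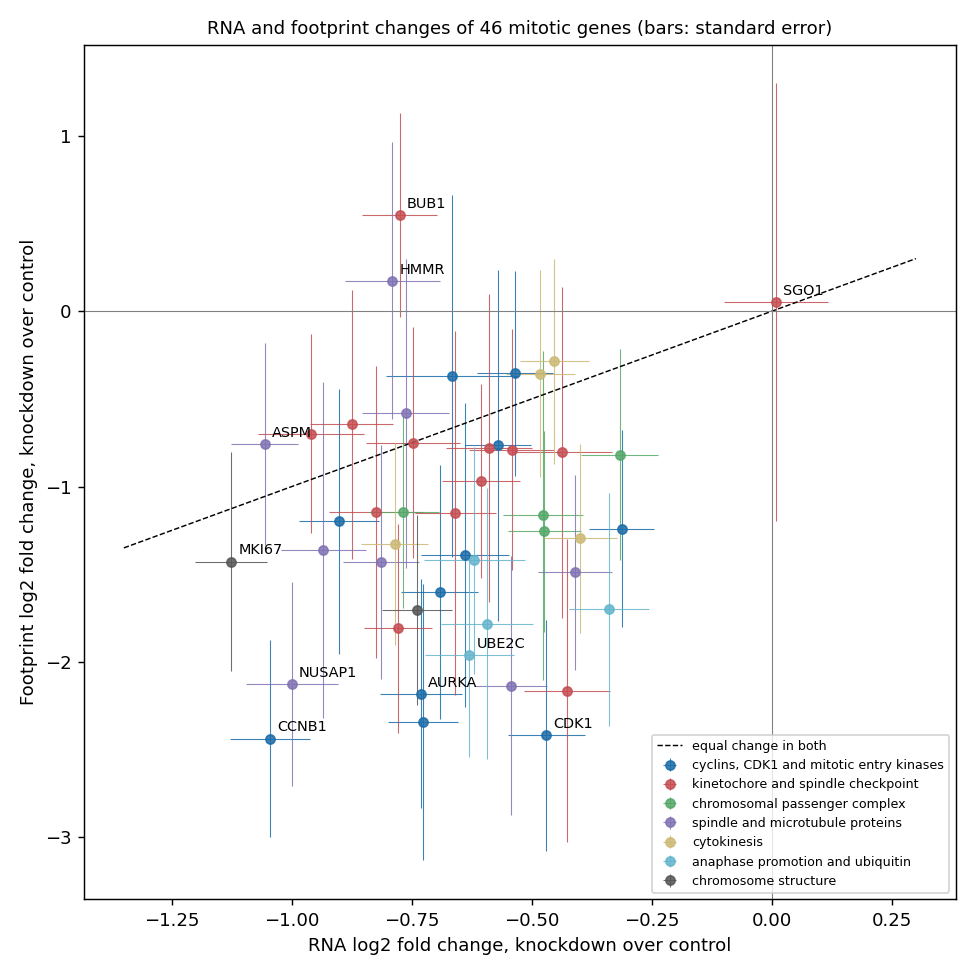
Footprint log2 fold change against RNA log2 fold change (knockdown over control) for the 46 members, coloured by role group, with standard errors as bars and a dashed line where both are equal. Below the line lie 35 of 46 genes, CCNB1 and CDK1 lowest at -2.44 and -2.42 in footprints, while BUB1, HMMR and SGO1 lie above 0.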

How the data were processed

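The deposited tables give counts per gene symbol, which the authors left unnormalized as far as the values show (whole numbers with different totals). Total RNA went into stranded libraries, and footprints came from RNase I digestion and isolation of monosomes, with rRNA depleted, per the labels' protocols. The submitters' processing notes list hg38 and the tools featureCounts, STAR, Bowtie2, Salmon and Trim Galore, with no roles. Which tool made which table, and whether footprints were counted over coding exons or whole genes, is not given in the sources used here.

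Each table was tested whole with edgeR 4.0.16 under R 4.3.3, by its quasi-likelihood test (filterByExpr, TMM scaling, Benjamini-Hochberg over all genes tested, threshold 0.05), knockdown against control. SE is the absolute log2 fold change over the square root of F. Translational efficiency was the assay-by-condition interaction, with TMM within each assay. The fits were tested on simulated data, where the RNA test recovered most changes, the footprint test almost none and the test of translational efficiency none. The simulation used the same dispersion for all genes of an assay, so its recovery need not hold for these data. Alternatives were RLE factors, DESeq2 1.42.0, limma-voom (limma 3.58.1), 2 other count filters, each library left out, a replicate block, a 1.5-fold threshold, and 2 treatments of Ribo-seq background. The 8 libraries form 4 groups of 2. The members, role groups and other lists were chosen with earlier results of these data known. All members were accounted for, with full statistics for the 3 members of each role group with the smallest RNA p, those called in footprints, SGO1 as the one not called in RNA, and at most 2 called genes per other list. Genes singled out beyond this were chosen after their values were seen. Some marker genes are not reported here. Gene positions are those of RefSeq, GRCh38.p14.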

Additional observations from a re-analysis of the deposited data

How the results depend on the processing

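The number of members lower in RNA was 45 under RLE factors, DESeq2, limma-voom, both other count filters and the replicate block, between 40 and 45 with a library left out, and 8 against a 1.5-fold change. In those settings that kept all libraries, between 12.9% (no count filter) and 19.3% (at least 50 counts) of all genes were called lower. Against a 1.5-fold change it was 1.13%. The RNA median lay between -0.74 and -0.60 with a library left out. SGO1 was the member that changed sign in RNA, -0.075 without knockdown replicate 1 and -0.056 without control replicate 1, in a range up to 0.086, uncalled throughout. Members with lower footprints numbered 7 with DESeq2 and 7 with limma-voom (1.44% of all genes in each). They numbered 6 with no count filter (0.635%), 3 with RLE factors (0.489%) and 1 against a 1.5-fold change (0.253%). They numbered 1 among genes with at least 10 RNA CPM (0.295%) and 0 with background taken off (0.0%). With at least 50 counts on average in each group they numbered 0 (0.373%), where 14 members were tested. They numbered between 0 and 3 with a library left out. The footprint median was -0.89 with at least 50 counts, -0.95 with at least 10 RNA CPM, and between -1.64 and -1.07 with a library left out. The filter of at least 50 counts removed CCNB1, CDK1, AURKA, NUSAP1 and UBE2C, whose knockdown counts were too low. Values under it, here and in translational efficiency, thus come from members chosen in part by their knockdown level. In translational efficiency DESeq2 gave 6 lower (6.34% of all genes) and 1 higher (9.53%). The background treatment gave 1 lower (DLGAP5, against 1.46% of all genes), and the median was -0.083 with at least 50 counts. With a library left out, the numbers were between 0 and 14 lower and 0 and 1 higher, with medians between -0.87 and -0.30. The 14 came without knockdown Ribo-seq replicate 2, where 15.0% of all genes were called lower. Apart from the fewer genes tested under the stricter filters, the causes were not tested.

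Same-numbered replicates had correlated deviations of -0.032 in RNA-seq and 0.103 in Ribo-seq, and nothing in the labels pairs them. With the replicate block the lower members were 45 in RNA, 14 in footprints (3.35% of all genes, against 0.607% without it) and 0 in translational efficiency. Depth limits the footprint values far more than the RNA values.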
